A study of Mus musculus with 12 samples.

Results

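Nphs1, which encodes the slit diaphragm protein nephrin, and Wt1, which encodes a zinc finger transcription factor known to activate it in the kidney, were followed in mouse embryonic stem (ES) cells entering a dormant state. The 2 genes were found by symbol among the 54446 genes listed in each of 12 libraries. RNA depleted of ribosomal RNA had been sequenced from KH cells, the wild-type line, and from DNMT3ABKO cells, a knockout of Dnmt3a and Dnmt3b, the enzymes that place new DNA methylation. Each line was collected at 0 h and after 72 and 144 h in INK128, an inhibitor of the growth-promoting kinase mTOR, with 2 libraries per group and 6 groups. The genotypes are represented by 1 line each, and no library came from cells kept untreated for 72 or 144 h, so that genotype and line, or treatment and time in culture, cannot be told apart. According to the study's methods, wild-type KH2 and Dnmt3a/b mutant cells were grown on inactivated feeder fibroblasts and sorted as viable single cells, whereas the labels write E14 before both line names. The labels do not say whether replicates were separate cultures, while the study's methods state for its experiments in general that they were repeated independently. If these libraries were not, p-values measure only the technical spread between them. Nphs1 was chosen by its increase in KH cells at 72 h, and Wt1 by the difference between the lines in the 72 h response, in earlier results from the same libraries. All differences that use those libraries are therefore given as descriptions with a standard error and without a p-value.

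In the kidney, podocytes wrap the capillaries of the glomerulus, and their interlocking foot processes are bridged by the slit diaphragm. Nephrin molecules from neighbouring processes meet in this bridge together with proteins of the Neph (Kirrel) family. Wt1 stays on in mature podocytes, where it acts on slit diaphragm genes. It is also active in the early gonad and in mesothelium, and kidneys and gonads do not form without it. Neither gene is commonly used as a marker of ES cells.

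Nphs1 (ENSMUSG00000006649.17) occupies mm10 chr7:30458315-30487223 on the plus strand, with 5 annotated transcripts, 2 of them protein-coding, and up to 30 exons. Kirrel2 (ENSMUSG00000036915.17, chr7:30447534-30457690), which encodes a Neph family partner of nephrin, lies on the minus strand next to it, head to head. The outermost annotated starts of the 2 genes are 625 bases apart, whereas their RefSeq starts, used for the sequences below, are 2543 bases apart. An antisense transcript, Nphs1os (ENSMUSG00000087009.1, chr7:30462164-30465591), runs within the Nphs1 span and shares 597 of its 1339 exon bases with Nphs1. Wt1 (ENSMUSG00000016458.14) occupies chr2:105126529-105173616 on the plus strand, with 9 transcripts, 7 of them protein-coding, and up to 10 exons. Its antisense neighbour Wt1os starts 19 bases away and shares no exon bases with it. Strand use in the counting is not given in the sources used here, so reads from Nphs1 and Nphs1os cannot be fully told apart where they overlap.

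The stretches in front of the RefSeq starts of Nphs1 and Kirrel2 are shown because both genes were higher together in INK128 and because CG pairs, in capitals, are where both enzymes place their marks. They are 5′ to 3′ on each gene's own strand, from RefSeq (GRCm38.p6), for chr7:30460028-30460057 (Nphs1, plus strand) and chr7:30457516-30457765 (Kirrel2, minus strand):
Nphs1: gggagggagggagggagggaagagagaagg
Kirrel2: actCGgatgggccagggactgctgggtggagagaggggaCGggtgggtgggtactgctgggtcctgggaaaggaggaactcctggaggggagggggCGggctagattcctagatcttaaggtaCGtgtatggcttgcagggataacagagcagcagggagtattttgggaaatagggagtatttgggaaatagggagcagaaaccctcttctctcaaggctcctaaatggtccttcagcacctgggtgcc
The 30 bases before the Nphs1 start hold no CG pair, and the 250 bases before the Kirrel2 start hold 4. Only 30 bases are printed for Nphs1 because the whole 300-base window around its RefSeq start is annotated as 5′ untranslated region of a longer GENCODE transcript. In the full 300-base windows, from 250 bases before the start to 50 after it, Nphs1 has 6 CG pairs and Kirrel2 has 8, beside a median of 7 over 32851 windows of that length. G and A make up 77.7% of the Nphs1 window. Letters usually written for Wt1 and related zinc fingers, GCGTGGGAG, GCGGGGGCG and the shorter GTGGGAG contained in the first, had no match on either strand of the Nphs1 or the Kirrel2 window. Of all windows, 0.472%, 2.91% and 9.73% hold them. Absence from these windows says nothing about binding elsewhere. The promoter of Wt1 was not analysed here.

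The libraries were checked briefly. TPM, a share of each library corrected for transcript length, keeps no read depth, so the depth is unknown, and 15178 to 15811 genes per library reached 1 TPM. Across the 15727 tested genes, which are not independent replicates, the 2 libraries of a group correlated with an r of 0.993 to 0.996, except for DNMT3ABKO cells at 0 h (r = 0.985). Dnmt3a stood at 54.7 to 144 TPM in the 6 KH libraries and at 7.35 to 21.9 TPM in the 6 DNMT3ABKO libraries, and Dnmt3b at 142 to 258 and 12.7 to 27.5 TPM, without overlap. Summed TPM of the 22 fibroblast markers fell with time, from 2126 to 2262 at 0 h to 518 to 611 at 144 h in KH cells and from 2482 to 2620 to 372 to 386 in DNMT3ABKO cells. Most of the 144 h sums came from Fn1 alone, which moved less. It held 537 and 583 TPM at 0 h and 526 and 440 TPM at 144 h in KH cells. In DNMT3ABKO cells it held 501 and 717, then 292 and 283 TPM. The 12 ES cell markers summed to 4591 to 4903 TPM at 0 h and to 6677 to 7223 TPM in INK128. Dppa5a alone held 1864 and 1959 TPM of the KH sums at 0 h and 3209 and 3163 TPM at 144 h. In DNMT3ABKO cells it held 2044 and 1924, then 3144 and 3084 TPM. The 12 markers did not all move alike, as at 72 h in DNMT3ABKO cells Tdgf1 rose by 1.70 and Nanog fell by 0.49. As these marker sums moved in opposite directions, member values were also scaled to the summed ES cell markers, a choice made after the data were seen. That scaling put the median difference of all tested genes at -0.41 and -0.47 in KH cells and at -0.36 and -0.50 in DNMT3ABKO cells at 72 and 144 h, compared with 0.08, 0.05, 0.12 and 0.05 in TPM, so that more genes count as fallen under it.

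Nphs1 was present before treatment and several-fold higher in INK128 in both lines. Both KH libraries held 17.9 TPM at 0 h, those of 72 h held 124 and 119 TPM, and the 144 h libraries gave 97.0 and 99.96 TPM. In DNMT3ABKO cells the 2 libraries gave 8.69 and 8.56 TPM at 0 h, 86.1 and 87.6 TPM at 72 h and 60.0 and 67.1 TPM at 144 h. No 2 groups overlapped, and from the highest to the lowest mean the order was KH at 72 h (121 ± 3.34 TPM, SD, n = 2), KH at 144 h (98.5 ± 2.11), DNMT3ABKO at 72 h (86.8 ± 1.05), DNMT3ABKO at 144 h (63.6 ± 5.05), KH at 0 h (17.9 ± 0.0554) and DNMT3ABKO at 0 h (8.62 ± 0.0914). Both lines thus had their peak at 72 h, and KH cells had the higher level at each time. Among protein-coding genes, Nphs1 ranked 5613 and 5915 from the top in the KH libraries at 0 h and 918 and 948 at 72 h. In bulk libraries, fewer cells with a transcript and less transcript per cell cannot be told apart.

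**Figure D1:**
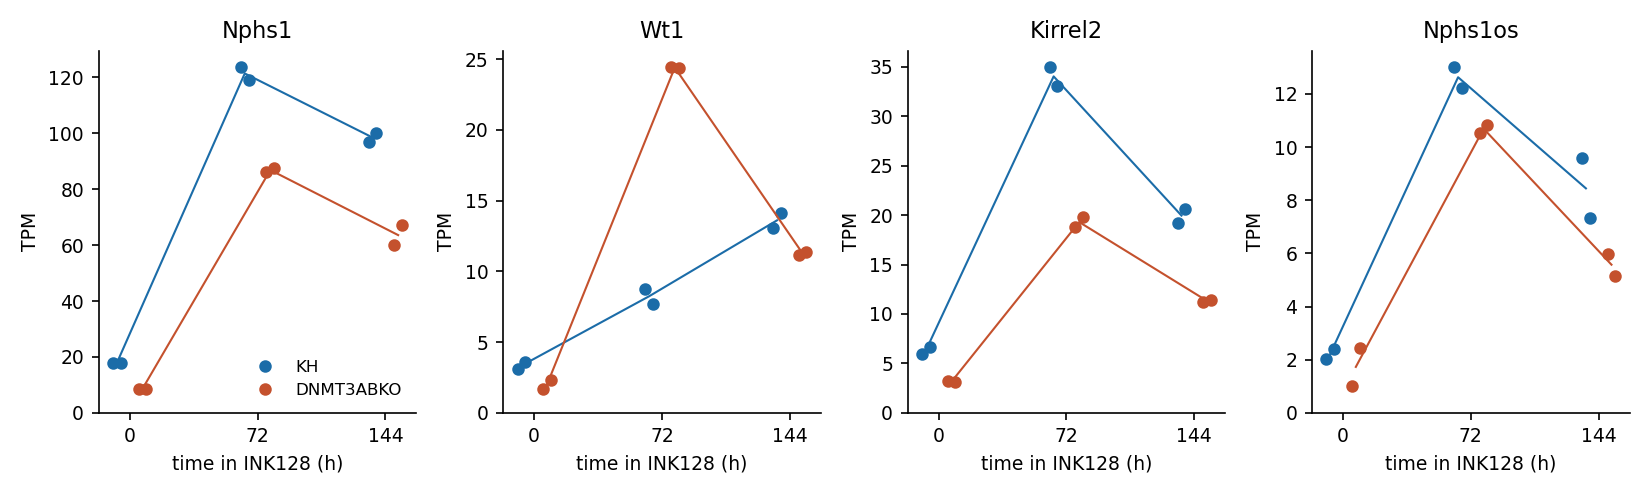
Nphs1, Wt1, Kirrel2 and Nphs1os in TPM (vertical axes, starting at 0) against hours in INK128, with 1 point per library (set apart sideways for legibility), KH in blue and DNMT3ABKO in red, and lines through the group means. Nphs1, Kirrel2 and Nphs1os peaked at 72 h in both lines, with KH above DNMT3ABKO in the means, whereas Wt1 climbed to 144 h in KH cells and peaked at 24.4 TPM at 72 h in DNMT3ABKO cells.

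The DNMT3ABKO time course shares no library with the increase by which Nphs1 was chosen, and there it could be tested. The spread behind each p-value was estimated over all 12 libraries, however, those of the choice included. The tested Nphs1 differences also passed in models of the compared groups alone. Nphs1 rose by 3.19 ± 0.07 on the log2(TPM + 1) scale (SE) at 72 h, a 10.1-fold ratio of mean TPM (limma adjusted p = 1.00e-08), the 5th largest increase of 15727 genes. At this time 56.0% of all tested genes were called. At 144 h the increase over 0 h was 2.74 ± 0.07, or 7.37-fold (limma adjusted p = 3.305e-09), where 57.6% of genes were called. From 72 to 144 h Nphs1 fell by 0.45, to 73.2% of the 72 h mean (SE 0.07, limma adjusted p = 8.995e-04, 27.3% of genes called). In KH cells the differences were 2.695 ± 0.07 at 72 h (6.78-fold), 2.396 ± 0.07 at 144 h (5.50-fold) and -0.30 ± 0.07 between 72 and 144 h, where 47.8%, 51.3% and 22.9% of all genes were called. Scaling to the ES cell markers lowered the KH differences to 2.15 at 72 h and 1.82 at 144 h and the DNMT3ABKO increase at 144 h to 2.16 (limma adjusted p = 8.464e-09).

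DNMT3ABKO cells held less Nphs1 than KH cells throughout. Their mean was 48.2% of the KH mean at 0 h, 71.5% at 72 h and 64.6% at 144 h. The log2 differences were -0.97 ± 0.07, -0.48 ± 0.07 and -0.63 ± 0.07, beside 9.06%, 19.3% and 26.5% of all genes called. Only the comparison at 144 h shares no library with the choice of Nphs1, and it passed the test (limma adjusted p = 1.108e-04). On the log2 scale the increase was larger in DNMT3ABKO cells, which began lower, by 0.50 ± 0.10 at 72 h and by 0.35 ± 0.10 at 144 h. In TPM the gain was larger in KH cells, where the mean went from 17.9 to 121 and 98.5 TPM. The DNMT3ABKO mean went from 8.62 to 86.8 and 63.6 TPM.

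Wt1 was low at 0 h and took a different course in each line. In KH cells it stood at 3.07 and 3.59 TPM at 0 h, 8.78 and 7.71 TPM at 72 h and 13.1 and 14.2 TPM at 144 h. The DNMT3ABKO libraries held 1.65 and 2.32 TPM before treatment, 24.5 and 24.4 TPM after 72 h and 11.1 and 11.4 TPM after 144 h. KH cells therefore had their highest level at 144 h and DNMT3ABKO cells theirs at 72 h, from which it was lower again by 144 h. The order of the group means was DNMT3ABKO at 72 h (24.4 ± 0.0640 TPM, SD, n = 2), KH at 144 h (13.6 ± 0.779), DNMT3ABKO at 144 h (11.3 ± 0.187), KH at 72 h (8.24 ± 0.752), KH at 0 h (3.33 ± 0.372) and DNMT3ABKO at 0 h (1.99 ± 0.469), again without overlap between groups. Wt1 ranked 4829 and 4785 among protein-coding genes at its highest, in DNMT3ABKO cells at 72 h, and 11540 and 11199 at its lowest.

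The Wt1 differences from 0 h were 1.09 ± 0.12 at 72 h (2.48-fold) and 1.76 ± 0.12 at 144 h (4.09-fold) in KH cells. In DNMT3ABKO cells they were 3.10 ± 0.12 (12.3-fold) and 2.05 ± 0.12 (5.68-fold). Between 72 and 144 h Wt1 was higher by 0.66 ± 0.12 in KH cells and lower by a log2 difference of -1.05 ± 0.12 in DNMT3ABKO cells, to 46.2% of the 72 h mean. The lines differed by -0.54 ± 0.12 at 0 h (59.6% of KH), by 1.46 ± 0.12 at 72 h (296%) and by -0.25 ± 0.12 at 144 h (82.8%). At 144 h, where the choice of Wt1 used no library, the difference did not pass the test (limma adjusted p = 0.156). It passed when the model held just the KH and DNMT3ABKO libraries of 144 h (limma adjusted p = 0.04801). On the log2 scale the response of DNMT3ABKO cells exceeded that of KH cells by 2.00 ± 0.17 at 72 h, the contrast by which Wt1 was chosen. At 144 h the excess was 0.29 ± 0.17 (0.13 and 0.45 without DNMT3ABKO replicate 1 or 2 of 0 h). Of all genes, 5.23% and 8.59% were called for a difference in response at these times. With a replicate block the number called at 72 h was 545 instead of 823. Scaling to the ES cell markers gave 0.63 (72 h) and 1.26 (144 h) for KH cells, 2.699 and 1.57 for DNMT3ABKO cells, and 2.07 for the difference in the 72 h response.

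**Figure D2:**
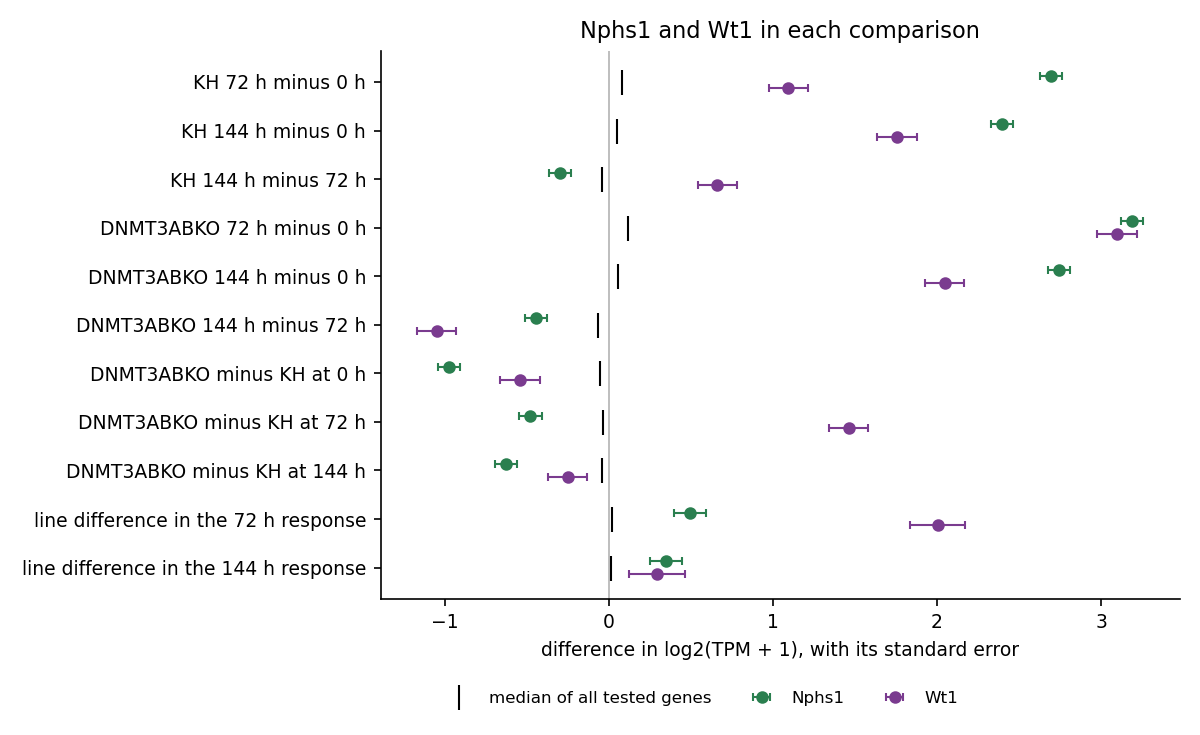
Differences in log2(TPM + 1) for Nphs1 (green) and Wt1 (purple) in the 11 comparisons, with limma standard errors as bars and the median of all 15727 tested genes as a black tick. Both genes were several log2 units above the gene median in INK128 in DNMT3ABKO cells, and at 72 h the lines differed in opposite directions, by -0.48 for Nphs1 and 1.46 for Wt1.

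Set side by side, the 2 genes did not keep a constant proportion. KH cells held 14.1 and 15.4 TPM of Nphs1 per TPM of Wt1 at 72 h, compared with 5.85 and 4.97 at 0 h and 7.43 and 7.06 at 144 h. The ratio in DNMT3ABKO cells was 5.25 and 3.69 before treatment, 3.52 and 3.60 after 72 h and 5.39 and 5.89 after 144 h. At 72 h the line with 296% of the Wt1 level had 71.5% of the Nphs1 level. In KH cells Wt1 was higher at 144 h than at 72 h while Nphs1 was lower, and in DNMT3ABKO cells both were lower. The root mean square difference of the centred log2 profiles over 12 libraries was 0.69, which placed Wt1 at rank 52 of 15726 genes in likeness to Nphs1, and Nphs1 at rank 621 in likeness to Wt1.

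**Figure D3:**
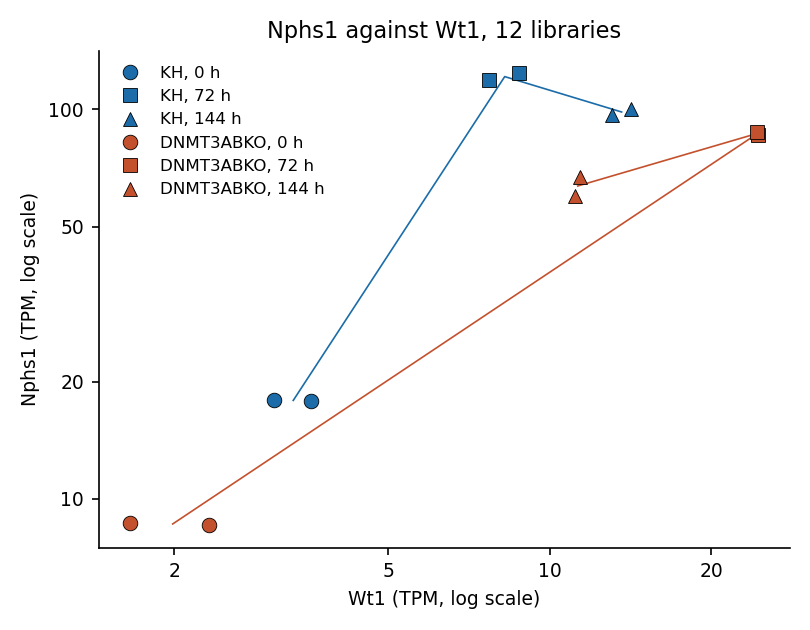
Nphs1 against Wt1 in TPM on log axes for the 12 libraries, with symbols for time, colours for line and lines joining the group means in time order. KH libraries at 72 h combine the highest Nphs1 (119 and 124 TPM) with 7.71 to 8.78 TPM of Wt1, whereas DNMT3ABKO libraries at 72 h have the highest Wt1 and 86.1 to 87.6 TPM of Nphs1.

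The genes around Nphs1 were examined next. Kirrel2, its head-to-head neighbour, had the profile nearest to that of Nphs1 among 12599 genes, those with only a clone or model name left out. Kirrel2 stood at 5.97 and 6.63 TPM in KH cells at 0 h, 35.0 and 33.0 TPM at 72 h and 19.3 and 20.7 TPM at 144 h. The DNMT3ABKO libraries held 3.20 and 3.07, then 18.8 and 19.8, then 11.2 and 11.4 TPM. Each INK128 library lay above both 0 h libraries of its line, and all DNMT3ABKO libraries lay below the KH libraries of the same time. In KH cells Kirrel2 was higher by 2.26 ± 0.08 at 72 h and by 1.52 ± 0.08 at 144 h. These KH values are descriptions, since they use libraries by which Nphs1, with the nearest profile, was chosen. In DNMT3ABKO cells Kirrel2 rose by 2.29 ± 0.08 at 72 h and by 1.57 ± 0.08 at 144 h (limma adjusted p at most 1.399e-07). It was lower in DNMT3ABKO cells by log2 differences of -0.82, -0.79 and -0.77 at 0, 72 and 144 h (SE 0.08). Only the comparison at 144 h shares no library with the choice of Nphs1, and it passed the test (limma adjusted p = 9.724e-05). For Kirrel2 the difference between lines in response was 0.03 ± 0.12 at 72 h and 0.05 ± 0.12 at 144 h, again as descriptions.

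Nphs1os, the antisense transcript, went from 2.04 and 2.39 TPM to 13.025 and 12.2 and then 9.57 and 7.32 TPM in KH cells. DNMT3ABKO libraries gave 1.03 and 2.43, 10.5 and 10.8, and 5.99 and 5.16 TPM. At 72 h Nphs1os rose by 2.15 ± 0.21 in DNMT3ABKO cells (limma adjusted p = 2.228e-05). In KH cells it was higher by 2.08 ± 0.21, a description, since reads may be shared with Nphs1, chosen by that comparison. The differences between lines did not pass the test at any time. Reads of Nphs1os and Nphs1 could be shared over 44.6% of its exon bases.

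Within 100 kb of Nphs1, 22 other genes were listed and 15 were tested. At 72 h, 7 of the 15 rose and 4 fell in KH cells, with a median of 0.38 beside 0.08 for all tested genes, and 6 rose and 4 fell in DNMT3ABKO cells, with a median of 0.18 beside 0.12. Of all genes, 47.8% and 56.0% were called in these comparisons. After Kirrel2 and Nphs1os, the largest increases were those of Nfkbid (1.19 and 1.65), which encodes a regulator of NF-kappaB, and Aplp1 (1.08 and 1.66), a member of the amyloid precursor protein family. Both lie beyond Kirrel2, 29569 and 12780 bases from Nphs1. Aplp1 held 43.4 and 44.8 TPM in KH cells at 0 h and 96.2 and 91.9 TPM at 72 h, and 32.9 and 37.8 and then 114 and 113 TPM in DNMT3ABKO cells. Unlike Kirrel2, it stood higher in DNMT3ABKO than in KH cells at 72 h (0.27 ± 0.07, limma adjusted p = 0.0274, or 0.0596 with a replicate block).

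The other neighbours moved less or fell. Kmt2b, a histone methyltransferase gene, rose by 0.50 and 0.56 at 72 h and Lin37, of the DREAM cell cycle complex, by 0.55 in KH cells, with 0.15 in DNMT3ABKO cells, which did not pass. Lrfn3, a synaptic adhesion gene, rose by 0.38 and 0.33, which did not pass with a replicate block (limma adjusted p = 0.0509 and 0.0735). With scaling to the ES cell markers none of these passed, and Kmt2b in KH cells (-0.05) and Lrfn3 in both lines (-0.05 and -0.06) changed sign. Tyrobp, an adaptor of myeloid receptors, fell by 0.46 and 0.99 at 72 h, and at 144 h was listed at 0 and 0.218 TPM in the KH libraries. Hspb6, a small heat shock protein gene, fell by 0.74 and 0.79, and Psenen, of the gamma-secretase complex, fell by 0.56 and 0.35. Rps12-ps4, a processed pseudogene inside the Nphs1 span that can share reads with the Rps12 gene, fell by 0.37 and 0.35 from 51.7 and 59.4 TPM. Proser3, Arhgap33, U2af1l4 and Gm49396 did not pass the test at 72 h, with differences of -0.05 to 0.38 in KH cells and of 0.07 to 0.47 in DNMT3ABKO cells, the last of which, for Gm49396, passed with a replicate block (limma adjusted p = 0.042).

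**Figure D4:**
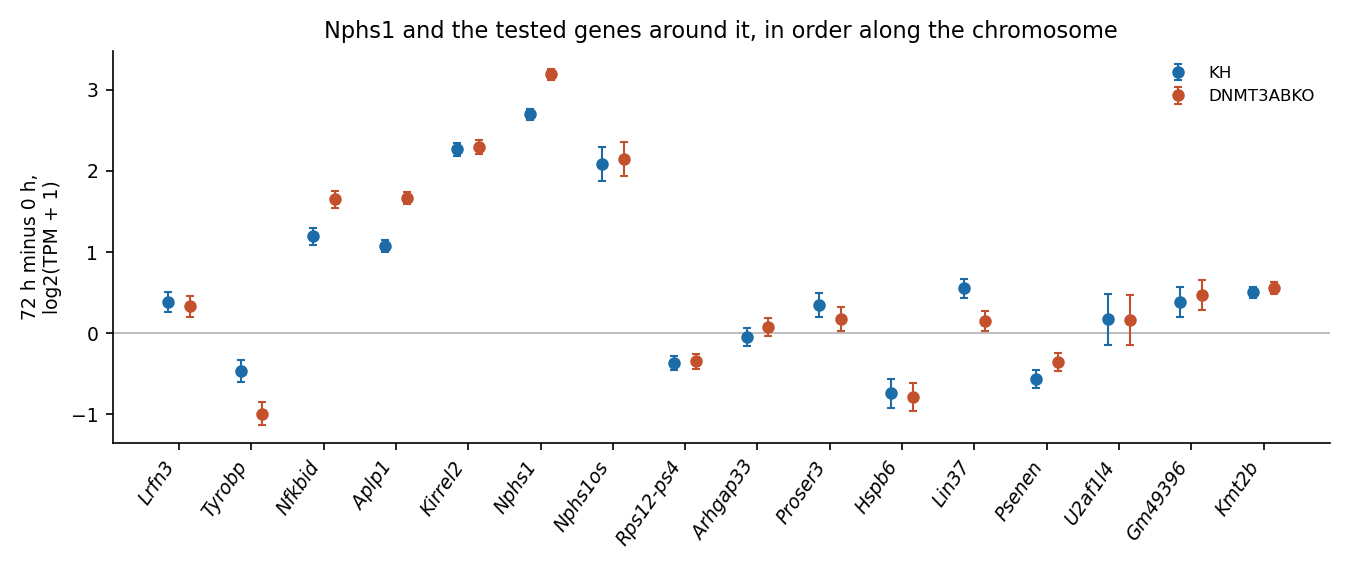
Difference in log2(TPM + 1) between 72 and 0 h, with standard errors, for Nphs1 and the 15 tested genes within 100 kb of it, placed in their order along the chromosome but not to distance, KH in blue and DNMT3ABKO in red. The 5 largest increases in each line were those of Nfkbid, Aplp1, Kirrel2, Nphs1 and Nphs1os, which are adjacent in this order.

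Around Wt1, 8 other genes were listed within 100 kb and none reached the mean of 1 TPM needed for the test. Wt1os, the antisense transcript that starts beside Wt1, stood at 0.0154 and 0.00914 TPM in KH cells at 0 h, 0.265 and 0.420 TPM at 72 h and 0.367 and 0.649 TPM at 144 h. In DNMT3ABKO cells it was listed at 0 and 0.0424 TPM, then at 1.29 and 1.07 TPM and at 0.106 and 0.391 TPM. Its highest group was thus DNMT3ABKO at 72 h, the same as for Wt1, at levels too low for a fold to be read. Gm27308 and Gm27538, gene models next to the Wt1 start, reached group means of 1.17 and 1.14 TPM at most.

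Whether Nphs1 was accompanied by other genes of the slit diaphragm and the podocyte was examined with a list of 40 genes, of which 28 besides Nphs1 were tested. In KH cells 6 rose and 11 fell at 72 h (60.7% called beside 47.8% of all genes, median -0.01 beside 0.08), and 4 rose and 9 fell at 144 h (46.4% beside 51.3%, median -0.10 beside 0.05). In DNMT3ABKO cells 9 rose and 11 fell at 72 h (71.4% beside 56.0%, median 0.05 beside 0.12), and 5 rose and 13 fell at 144 h (64.3% beside 57.6%, median -0.16 beside 0.05). With scaling to the ES cell markers, 1 rose and 23 fell in KH cells at 72 h and 4 rose and 17 fell in DNMT3ABKO cells. Without KH replicate 2 at 72 h, 11 rather than 17 were called in KH cells at that time. At 144 h 1 was higher and 10 were lower in DNMT3ABKO than in KH cells (39.3% beside 26.5% of all genes), with Efnb1 (-0.98), Lamb2 (-0.86) and Fat1 (-0.83) lowest.

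Several listed genes encode proteins that work directly with nephrin. Kirrel3, of the Neph family, stood at 0.0248 to 0.186 TPM. Kirrel, which encodes Neph1, fell in DNMT3ABKO cells by 0.48 at 72 h and by 1.33 at 144 h, and in KH cells by 0.68 at 144 h, while its 72 h difference of -0.07 did not pass. Cd2ap, an adaptor between the slit diaphragm and actin, rose by 0.30 in KH cells and by 0.63 in DNMT3ABKO cells at 72 h, but with scaling to the ES cell markers the KH value was -0.25, called as lower, and the DNMT3ABKO value no longer passed. Magi2, a scaffold protein gene, stayed between 0.492 and 1.49 TPM and was not tested. Plce1, which encodes a phospholipase mutated in nephrotic syndrome, rose at 72 h by 0.42 (KH) and 1.28 (DNMT3ABKO) and at 144 h by 1.12 and 1.47, although its 0.42 did not pass with scaling to the ES cell markers.

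Other genes of the list have roles at the podocyte surface, in its cytoskeleton or in transcription. Itga3, an integrin gene, rose at 72 h by 0.37 (KH) and 1.08 (DNMT3ABKO), with -0.16 in KH cells under scaling to the ES cell markers. Dag1, the dystroglycan gene, rose by 0.47 and 0.50 at 144 h, and both values were -0.11 under that scaling. Podxl, which encodes the surface protein podocalyxin and is also listed as a Wt1 target, gave -0.27 in KH cells at 72 h, which did not pass, and rose by 0.45 in DNMT3ABKO cells (-0.03 with scaling to the ES cell markers). Synpo, an actin-associated protein gene of foot processes, fell by 2.21 and 2.16 at 144 h in the KH and DNMT3ABKO lines, from group means of 14.1 and 14.2 TPM to 2.27 and 2.39 TPM. Arhgap24, a Rac-inactivating protein gene, fell by 1.49 and 1.37. Foxc2, a podocyte transcription factor gene, fell at 144 h by 0.87 and 0.84. Lmx1b stood at 0.179 to 0.774 TPM and Tcf21 at 0 to 0.0949 TPM, and neither was tested. These lists include genes that fibroblasts express as well, and the part of the falling fibroblast signal in their changes was not tested.

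The 8 genes listed as Wt1 partners were all tested. At 72 h 4 rose and 1 fell in KH cells (median 0.33), and 7 rose in DNMT3ABKO cells (median 0.77). At 144 h 3 rose in KH cells (median 0.23) and 5 in DNMT3ABKO cells (median 0.64). The shares called were 62.5%, 87.5%, 37.5% and 62.5%, beside 47.8%, 56.0%, 51.3% and 57.6% of all genes. With scaling to the ES cell markers 2 rose and 3 fell in KH cells and 4 rose and 2 fell in DNMT3ABKO cells at 72 h, and 2 rose and 5 fell and 3 rose and 3 fell at 144 h. Tet1 and Tet2, which oxidise methylated cytosine and of which Tet2 is known to be brought to target genes by Wt1, kept their increases under that scaling. Tet2 went from 40.1 and 43.6 to 88.6 and 90.9 TPM at 72 h in KH cells and from 24.3 and 36.2 to 74.2 and 70.6 TPM in DNMT3ABKO cells, by 1.08 ± 0.15 and 1.26 ± 0.15 (limma adjusted p = 2.65e-04 and 6.537e-05). Tet1 rose by 1.01 and 1.19.

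Tet3 and Pawr changed differently between the lines at 72 h. Tet3, another Tet enzyme gene, rose by 0.88 ± 0.11 in DNMT3ABKO cells, with 0.05 ± 0.11 in KH cells, a difference in response of 0.82 ± 0.16 (limma adjusted p = 0.0169). Pawr, which encodes an inhibitor that binds the zinc fingers of Wt1, fell by 0.31 in KH cells and rose by 0.29 in DNMT3ABKO cells, a difference of 0.60 ± 0.11 (limma adjusted p = 0.0101), although the DNMT3ABKO value was -0.22 with scaling to the ES cell markers. Basp1, a corepressor of Wt1, rose by 0.52 and 0.91 and Cited2, a coactivator, by 0.43 and 0.65 in the KH and DNMT3ABKO lines, and with scaling to the ES cell markers the KH values changed sign (-0.03 and -0.11). Hnrnpu, an RNA-binding protein gene, rose by 0.55 in DNMT3ABKO cells (0.02 with that scaling), beside 0.23 in KH cells, which did not pass, and the difference of 0.31 did not pass either. Wtap, a component of the RNA methyltransferase complex first found through Wt1, gave -0.06 in both lines and did not pass.

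Among 33 genes reported as Wt1 targets in other tissues, 19 besides Nphs1 were tested. In KH cells 5 rose and 7 fell at 72 h (median -0.27) and 4 rose and 7 fell at 144 h (median -0.15). In DNMT3ABKO cells 6 rose and 5 fell at 72 h (median -0.01) and 4 rose and 9 fell at 144 h (median -0.33). These amount to 63.2%, 57.9%, 57.9% and 68.4% of the tested targets, beside 47.8%, 51.3%, 56.0% and 57.6% of all genes. Nphs1, at 2.695 and 3.19 at 72 h, lay above the highest of the other targets (1.03 and 1.84), but it had been chosen by that increase in KH cells. With median-ratio scaling 4 rose and 10 fell in KH cells at 72 h and 5 rose and 7 fell in DNMT3ABKO cells, and with scaling to the ES cell markers 2 rose and 13 fell and 3 rose and 12 fell, of 20 then tested.

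Lef1, a transcription factor gene of the Wnt pathway, was the target whose course in each line came closest to that of Wt1 by inspection after its values were seen. At 0, 72 and 144 h the KH libraries held 10.2 and 11.3, 18.1 and 17.8, and 27.1 and 27.4 TPM, whereas the DNMT3ABKO libraries held 7.26 and 8.29, 31.6 and 29.4, and 15.3 and 16.8 TPM. Like Wt1 it was highest at 144 h in KH cells and at 72 h in DNMT3ABKO cells. Its 72 h response was larger in DNMT3ABKO cells by 1.15 ± 0.13, a description, since Lef1 was picked out for its course. Etv4, a factor downstream of growth factor signalling, rose by 0.88 and 1.31 at 72 h, and Spry1, a feedback inhibitor of such signalling, rose by 1.03 and 1.23.

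Other targets rose, fell or differed between the lines. Sall1, a kidney development gene, rose by 0.42 and 0.66 at 72 h, which no longer passed with scaling to the ES cell markers (-0.14 and 0.15). Ereg, an EGF receptor ligand, fell by 2.11 and 2.04 at 144 h, and Egfr fell by 1.57 and 1.55. Sox9, a factor of the Sertoli cell lineage, fell by 1.14 and 0.91 at 72 h. At 144 h 3 targets were higher and 6 lower in DNMT3ABKO cells (47.4% beside 26.5% of all genes). The largest of these was Aldh1a2, which makes retinoic acid, at 2.23 and 2.23 TPM in KH and 6.08 and 6.11 TPM in DNMT3ABKO cells (1.13 ± 0.12), and the lowest was Igf1r, a growth factor receptor gene, at -0.85.

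Because Wt1 also marks mesothelium and gonadal support cells, markers of both were measured beside it. Of the mesothelial list, 4 of the 10 genes other than Wt1 were tested, Muc16 did not exceed 0.0095 TPM in any library, and the 10 genes summed to 14.3 to 18.3 TPM at 0 h and 9.47 to 14.4 TPM in INK128. At 72 h 1 rose and 2 fell in KH cells and 2 rose and 2 fell in DNMT3ABKO cells, where Msln, which encodes mesothelin, and Rspo1 rose and Krt19 and Lrrn4 fell. In the same comparisons 47.8% and 56.0% of all genes were called. Of the gonadal list, 5 of 10 genes were tested, and Fshr was listed at 0 in all 12 libraries and Foxl2 did not exceed 0.114 TPM. Its sum followed Dmrt1, a regulator of testis and germ cell development, with 14.2 to 23.9 TPM at 0 h, 32.5 to 34.0 and 48.2 to 49.3 TPM at 72 h and 32.7 to 36.3 TPM at 144 h. Of the 5, Dmrt1 rose and Sox9 and Clu, the clusterin gene, fell in each line at 72 h, again beside 47.8% and 56.0% of all genes called.

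Fibroblast markers were lower in INK128 than at 0 h. Of 20 tested, 19 fell at 72 h and 18 at 144 h in KH cells (medians -1.75 and -3.57), and 18 and 19 fell in DNMT3ABKO cells (medians -1.97 and -3.82), where Twist1, a mesenchymal transcription factor gene, rose in TPM by 0.37 and 0.46 but not with scaling to the ES cell markers (-0.08 at both times). Of the 12 ES cell markers, 11 rose at 72 h and 10 at 144 h in KH cells (medians 0.52 and 0.48). In DNMT3ABKO cells these counts were 10 and 9, with 1 fallen at each time (medians 0.36 and 0.62). Of all 15727 genes, 4447 rose and 3073 fell at 72 h and 4308 rose and 3762 fell at 144 h in KH cells. In DNMT3ABKO cells 5397 rose and 3403 fell, then 4944 rose and 4117 fell. These counts compare shares of each library, not amounts per cell. Relative to added spike-in RNA, the paper reports a global fall of the transcriptome in wild-type cells under mTOR inhibition. It also reports decreased global transcription in Dnmt3a/b mutant cells. The part of the changing feeder share in the levels of Nphs1 and Wt1 was not tested beyond the scaling given above.

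**Figure D5:**
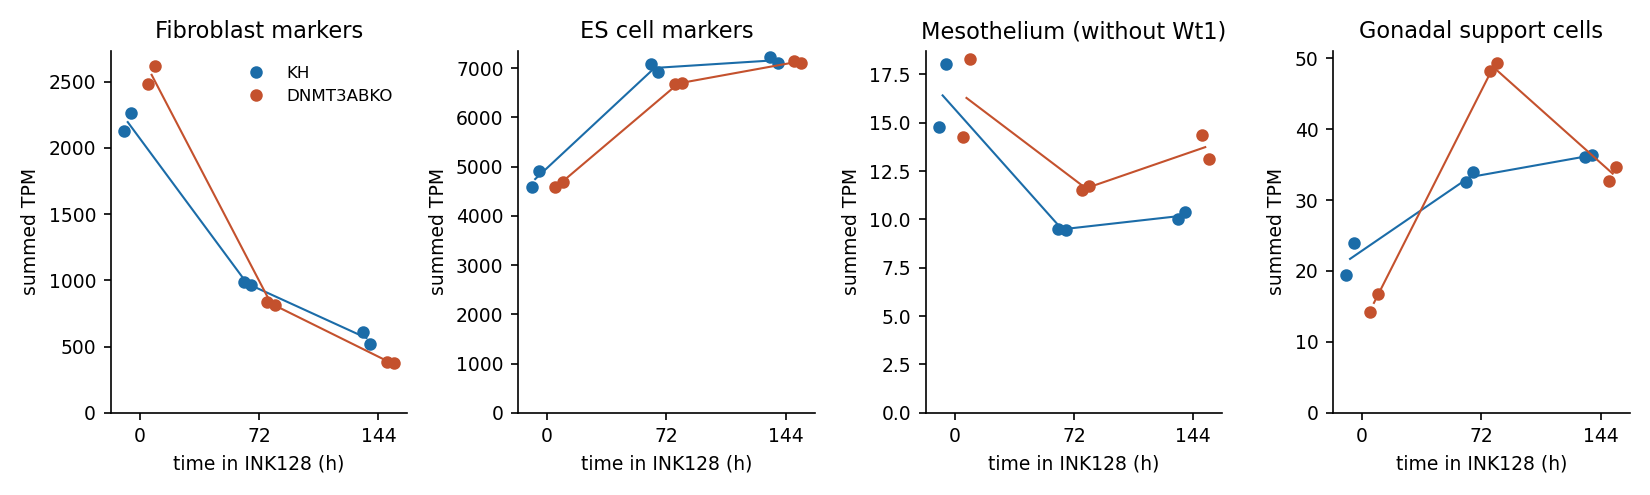
Summed TPM (vertical axes, starting at 0) of the markers of fibroblasts, ES cells, mesothelium and gonadal support cells against hours in INK128, with 1 point per library, KH in blue, DNMT3ABKO in red and lines through the group means. Fibroblast markers summed to 2126 TPM or more at 0 h and to 611 TPM or less at 144 h, while mesothelial markers stayed at 18.3 TPM or less in all 12 libraries. Fn1 alone held 526 and 440 TPM of the KH fibroblast sums at 144 h.

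The genes whose centred log2(TPM + 1) profiles over the 12 libraries lay nearest to each member were named by a fixed measure, the root mean square difference, as a description. Among the nearest to Nphs1 were Kirrel2 (0.44), Halr1 (0.45), Cntfr (0.46) and Platr7 (0.50). The root mean square of Nphs1 around its own mean was 1.36. Cntfr encodes a receptor for ciliary neurotrophic factor, whereas Halr1 and Platr7 are long non-coding RNAs. Cntfr, unlike Nphs1, was higher in DNMT3ABKO than in KH cells at 72 h, at 48.7 and 49.9 against 25.5 and 23.3 TPM. So were Halr1, with means of 160 against 114 TPM, and Platr7, with 38.7 against 26.5 TPM, whereas Kirrel2 was lower.

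Nearest to Wt1 were Pou2f2 (0.27), Dpp4 (0.32), Dmrt1 (0.34), Robo4 (0.35) and Fignl2 (0.36), where Wt1 itself varied by 1.05 around its mean. Pou2f2, which encodes the octamer-binding factor Oct2, stood at 8.35 and 8.93 TPM in KH cells and 19.0 and 17.3 TPM in DNMT3ABKO cells at 72 h, from 1.59 to 1.87 TPM in the libraries of 0 h. Dpp4 encodes a cell surface peptidase and Robo4 a receptor of the Robo family. Each of the 5, like Wt1, had a higher mean in DNMT3ABKO than in KH cells at 72 h. This describes their choice by likeness to Wt1 over the same libraries.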

How the data were processed

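Gene expression in 12 RNA-seq libraries, in 6 groups of 2, was analysed from the deposited TPM values. The authors depleted ribosomal RNA, added ERCC spike-in RNA, aligned reads to mm10 and quantified genes with StringTie. The submitters' processing notes name cutadapt 2.4, STAR 2.7.3a and StringTie 2.0. Each deposited TPM column summed to 1000000 and had no spike-in row, so values are relative and total RNA per cell was not analysed. TPM keeps no depth, so no counting intervals are given. Repeated rows of a gene, 9 to 16 per file, were summed.

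The scale of log2(TPM + 1) makes changes of weakly expressed genes look smaller. Of the 54446 genes, 15727 averaged 1 TPM or more over the libraries and were tested with limma 3.58.1 (R 4.3.3; lmFit and eBayes with trend), with 6 group coefficients, 11 contrasts and Benjamini-Hochberg adjustment, and called under 0.05. "Rose" and "fell" are used for called differences. Gene models were taken from GENCODE M21 (54409 identifiers matched) and promoter letters from RefSeq, in which 2 of the genes looked for were found. The script was tested on simulated data.

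The main model holds no replicate block. The study's methods state that the time points of a replicate were handled side by side, which pairs equal numbers within a line. Deviations of equal numbers correlated by -0.10 to 0.10 between times of a line and by -0.06 to 0.34 between lines. Blocked values are given where they change a call.

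The members, lists and tests were chosen with earlier results of these data known. Named were both members, Dnmt3a and Dnmt3b, genes within 100 kb with 1 TPM in a group, the core slit diaphragm genes, all partners, up to 3 highest and 3 lowest called list genes per comparison, and the most alike genes. Some genes that the rule names are not reported here. Other settings tried were 0.1 TPM as the pseudocount, testing every gene, median-ratio scaling, models of the compared groups alone, a replicate block, leaving out each library and, added after seeing the data, scaling to the 12 ES cell markers. Python 3.11.15, pandas 2.3.3, NumPy 2.4.6 and matplotlib 3.10.9 were used.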

Additional observations from a re-analysis of the deposited data

Results flagged for a closer look

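Values below are differences between the lines in the response to INK128 (DNMT3ABKO minus KH, log2 scale). They are given for some of the named genes that passed the interaction test in limma at an adjusted p under 0.05. For Nphs1 (0.50) and Wt1 (2.00) at 72 h the value is a description, since the libraries were those by which they were chosen. At 72 h positive differences were found for Cntfr (1.70), Dpp4 (1.63), Lef1 (1.15), Pou2f2 (1.00), Fignl2 (0.87), Halr1 (0.86), Plce1 (0.86), Tet3 (0.82), Robo4 (0.80), Podxl (0.72), Itga3 (0.71), Dmrt1 (0.68), Pawr (0.60), Aplp1 (0.59) and Etv4 (0.43), and a negative one for Lamb2 (-0.62), a basement membrane laminin gene. At 144 h the differences were positive for Dpp4 (1.25), Aldh1a2 (1.02), Tyrobp (0.82), Snai1 (0.81), Pdgfa (0.73) and Etv4 (0.47) and negative for Lamb2 (-0.90) and Kirrel (-0.65). Cntfr, Dpp4, Pou2f2, Fignl2, Halr1, Robo4 and Dmrt1, and Lef1 after its values were seen, were named for profiles like those of Nphs1 or Wt1 in the same libraries, so their values describe that choice. The adjusted p of Podxl was 0.0494, close to the threshold. With a replicate block 4 of these differences no longer passed, those of Podxl (limma adjusted p = 0.0979) and Etv4 (0.0863) at 72 h and of Kirrel (0.0691) and Tyrobp (0.0504) at 144 h. Genes that passed but are left out above include Rspo1 (0.78 at 72 h and 0.70 at 144 h), and Twist1 (0.82) and Dnmt3b (0.43) at 72 h. Twist1 and Dnmt3b did not pass with a replicate block (limma adjusted p = 0.0563 and 0.0707). Without DNMT3ABKO replicate 2 at 0 h, 2811 instead of 823 of the tested genes were called for a difference at 72 h and 3613 instead of 1351 at 144 h.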

How the results depend on the processing

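All 396 values of the members under 18 alternatives kept their sign. Of these, 361 moved by less than the residual spread or, where tested, kept their side of the threshold, 34 without a test moved by more than that spread, and 1 newly passed. The 4 tested Nphs1 differences passed the test under each of the 18. With a pseudocount of 0.1 TPM, Nphs1 moved to 2.75 and 2.45 in KH cells at 72 and 144 h, to -1.05 between lines at 0 h and to 0.56 and 0.41 for the differences in response, and Wt1 to 1.28 and 2.00 (KH), 3.57 and 2.47 (DNMT3ABKO), -0.73 between lines at 0 h and 2.29 and 0.46 for the differences in response. Median-ratio scaling gave 2.59 and 2.34 for Nphs1 in KH cells. Scaling to the ES cell markers, chosen after seeing the data, gave for Nphs1 2.15 and 1.82 in KH cells, -0.41 between lines at 72 h and 0.55 for the difference in the 72 h response, and for Wt1 0.63 and 1.26 (KH) and 2.699 and 1.57 (DNMT3ABKO). In a model of the compared groups alone, the Wt1 difference between lines at 144 h (-0.25) passed the test. The cause of these shifts was not tested, apart from the smaller pseudocount, which weighs low values more by construction.

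Leaving out 1 library gave 0.27 to 0.43 for Nphs1 (difference in the 144 h response), and for Wt1 2.94 to 3.26 and 1.89 to 2.21 (DNMT3ABKO at 72 and 144 h), -0.70 to -0.38 (lines at 0 h), 1.84 to 2.16 and 0.13 to 0.45 (differences in response). The last was 0.13 without DNMT3ABKO replicate 1 and 0.45 without replicate 2 at 0 h.

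With the replicate block, within each line, Nphs1 gave 3.19 and 2.74 in DNMT3ABKO cells at 72 and 144 h and -0.63 between lines at 144 h (limma adjusted p = 7.314e-04), and no call of a member changed. Calls of other genes that changed are given beside their values. The genes called for a difference in the 72 h response went from 823 to 545, and the other 10 counts stayed within 1.5 times. In models of the compared groups alone, 303 and 5143 genes were called between lines at 0 and 72 h (1425 and 3029 with all groups) and 437 and 757 for the differences in response (823 and 1351). Median-ratio scaling gave 1258 and 2075 for these responses, and no filter 2099 at 144 h. Leaving out 1 library gave 1755 to 2070 calls between 72 and 144 h in KH cells when it was a library of those groups (3597 with all), 2588 to 2721 in DNMT3ABKO cells (4289), 709 to 5021 between lines at 0 h, the highest without DNMT3ABKO replicate 2, 1454 to 4582 at 72 h, the highest without DNMT3ABKO replicate 1 of 0 h, and down to 2265 at 144 h (4166). TPM hold no depth, so limits from depth were not assessed.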
